A study of Mus musculus with 24 samples.

Results

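A group of 6 microRNAs with lower array signal towards the portal end of the liver lobule is described here: mmu-miR-3535, mmu-miR-709, mmu-miR-721, mmu-miR-5112, mmu-miR-3620-5p and mmu-miR-3069-3p, written below without the species prefix. They are 6 of the 1881 mouse miRNAs on the array, and were chosen by the decline of their signal from zone 1 to zone 8 in these same 24 arrays. Their zone profiles are therefore given as a description with no test, and tests are given only for what the choice did not use. The samples were tetraploid hepatocytes of 3 untreated male C57BL/6J mice aged 3 months, fed freely under a reversed light cycle. Staining for CD73, a surface marker of pericentral hepatocytes, and for E-cadherin, a marker of periportal ones, was used to sort each liver into 8 populations of 50000 cells called zones 1 (most pericentral) to 8 (most periportal). Dead, CD45+ and CD31+ cells had been removed. Each array held 1 zone of 1 mouse, so a zone had 3 arrays, and each mouse occupied 1 slide of 8 arrays.

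A microRNA is a short RNA that guides Argonaute proteins to messenger RNAs, mainly by pairing through bases 2 to 8 from its 5′ end, the seed. Most are cut from hairpin precursors by Drosha and Dicer, and a smaller number come from other small structured RNAs, among them small nucleolar and small Cajal body RNAs, which guide chemical modification of other RNAs. Hepatocytes near the central vein and near the portal tract carry out different metabolic work, a division called liver zonation, and the sorting follows that axis. Of the 6, miR-709 is the best described: in mouse cells it is known to enter the nucleus and to block the processing of the precursor of miR-15a and miR-16-1. No established role is stated here for the other members.

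Mature sequences of 4 of the 6 were matched by name in RefSeq on GRCm38.p6, and are shown because they set each miRNA's seed and relatives, with the seed in capitals. All 4 lie on the minus strand.
miR-3535: uGGAUAUGaugacugauuaccugaga
miR-721: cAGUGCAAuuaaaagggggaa
miR-3620-5p: cUGUGGGCugggcugggaagca
miR-3069-3p: uUGGACACuaaguacugccaca
No 2 of these 4 share a seed. Their lengths were 21 to 26 bases (median 22), against 18 to 26 (median 22) in the 282 other tested miRNAs with a sequence. Their GC content was 38.5% to 68.2% (median 44.2%), against 27.3% to 100% (median 56.3%) in those 282.

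The 6 genes lie on 6 chromosomes, and most sit inside other genes in RefSeq. The miR-3535 precursor, gene Gm24148 at chr1:86351981-86352127, lies within Ncl on the same strand. Ncl encodes nucleolin, a nucleolar protein of ribosome assembly. The gene Mir709, at chr8:84086099-84086186, lies within the span of Rfx1, a transcription factor gene, and Mir721, at chr5:136375716-136375803, within Cux1, a homeobox gene on the same strand. Mir3620, at chrX:150547385-150547445, overlaps the edge of Alas2, the erythroid gene for the first enzyme of haem synthesis, on the opposite strand, and lies within the span given for Apex2. Mir3069, at chr12:105031077-105031141, lies within Scarna13, a small Cajal body RNA gene at chr12:105031075-105031349, which itself lies in the host transcript Snhg10.

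Overlap with such guide RNA genes was rare on this array. A mature sequence overlapped a small nucleolar or guide RNA gene for 2 of 286 tested miRNAs with a position (0.699%), namely miR-3069-3p and miR-664-3p, and for 12 of 1608 on the array (0.746%). The precursor of miR-3069-3p is shown with the measured arm in capitals, and that of miR-3535 below it.
Mir3069: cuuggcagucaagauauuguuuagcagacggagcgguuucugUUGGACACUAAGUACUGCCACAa
Gm24148: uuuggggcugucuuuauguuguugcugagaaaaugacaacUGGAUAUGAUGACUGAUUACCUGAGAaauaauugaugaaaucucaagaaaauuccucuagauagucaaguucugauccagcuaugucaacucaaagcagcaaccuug
The mature miR-3535 holds the letters AUGAUGA once, at bases 6 to 12, and CUGA at bases 13 to 16 and 21 to 24. These are the letters of the C and D boxes that mark box C/D small nucleolar RNAs. They are shown in capitals in the next line, searched on the mature strand alone.
miR-3535 boxes: uggauAUGAUGACUGAuuacCUGAga
AUGAUGA was present in 3 of 1608 mature sequences on the array (0.187%) and CUGA in 210 (13.1%). miR-3535 was the 1 sequence of the 1608 with both. The match of letters alone does not show what the transcript is, which was not tested. The third motif searched, GGAGG, was in 0 of the 4 members with a sequence and in 27 of the 286 tested miRNAs with one (9.44%).

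The arrays differed in brightness, which bears on every value below. The summed miRNA signal ran from 57935 to 138301 intensity units and 248 to 368 miRNAs were detected per array. Hepatocyte miR-122-5p was at 9348 to 18428 units in zones 5 to 8 and at 5010 to 12012 in zones 1 to 4. Of 20 miRNAs listed for leukocytes, endothelium, stellate cells, bile duct and red cells, 2 were detected on any array, miR-126a-3p on 16 and miR-200b-3p on 1. The 20 summed to 0 to 9.53 units in zones 5 to 8 and to 0 to 10.9 in zones 1 to 4. Leukocyte (5 of 5), stellate (5 of 5) and erythroid (3 of 3) markers were undetected throughout. The 75th percentile used for scaling had a median of 75.9 in zones 5 to 8 and 70.5 in zones 1 to 4. Zones 5 to 8 lay in the second row of every slide and zones 1 to 4 in the first, so a difference between these zones and one between rows cannot be told apart. In bulk RNA fewer cells holding a miRNA and less of it per cell cannot be told apart.

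All 6 members passed the filter of detection on at least 6 of 24 arrays. Of these, 5 were detected on every array (n = 24 each) and miR-721 on 23 of 24. Signals below are scaled to each array's 75th percentile unless called raw, in intensity units, and levels of different miRNAs are not comparable because probes differ in brightness.

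mmu-miR-709 dropped in signal between zones 5 and 6 in every mouse. The error given in the files had a median of 8.44% of its signal. From zone 1 to zone 8 its scaled signal in mouse 1 was 148, 164, 179.6, 146, 141, 99.0, 100.4 and 98.4. In mouse 2 it was 177, 171, 172, 206, 143, 100.3, 87.2 and 96.2. In mouse 3 it was 113, 91.7, 116, 108, 112, 80.1, 67.7 and 69.1. Over zones 1 to 4 the fitted change was 0.02, 0.20 and 0.04 log2 units in mice 1, 2 and 3, although zone 4 was below zone 1 in mice 1 and 3. The lowest 3 zones of every mouse were zones 6, 7 and 8. The drop between zones 5 and 6 was alike in the mice, with zone 6 minus zone 5 at -0.51, -0.51 and -0.48 log2 units, while zone 5 minus zone 4 was -0.04, -0.53 and 0.05. On the scaled data zone 6 was below zone 5 in all 3 mice for 22.7% of the 339 tested miRNAs, so that direction was common. The fitted change over the axis (7 times the slope per zone) was -0.91 ± 0.21 log2 units (SE). This SE and those of the fitted changes below treat arrays of the same mouse as independent. They are therefore no measure of the spread between animals, which is given as the SD of the fitted changes of the 3 mice. For miR-709 that SD was 0.22. The zone 8 mean was 87.9 ± 16.3 against 146 ± 31.9 in zone 1 (SD, n = 3), and ordered from high to low the zones ran 3, 4, 1, 2, 5, 6, 8, 7. The step from zone 5 to zone 6 was the 1 step of 7 in that order larger than the SD within zones. Without scaling the decline was smaller, with a raw fitted change of -0.68 and zone 8 minus zone 1 at -0.36, against -0.73 with scaling, and zone 6 minus zone 5 was -0.41, 0.06 and -0.56.

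mmu-miR-3535 was lowest in zone 8 in every mouse on the scaled data. In mouse 1 its scaled signal from zone 1 to zone 8 was 3.13, 3.25, 3.55, 2.97, 2.72, 2.28, 2.13 and 2.04. In mouse 2 it was 5.15, 4.04, 3.75, 4.68, 2.90, 2.19, 1.80 and 1.43. In mouse 3 it was 2.76, 2.42, 3.19, 2.98, 2.52, 2.13, 2.52 and 1.98. In mice 1 and 2 all of zones 5 to 8 lay below all of zones 1 to 4. How many of all tested miRNAs had zones so separated was not computed, here or for the members below. The zone 8 mean was 1.82 ± 0.335 against 3.68 ± 1.29 in zone 1 (SD, n = 3), and the fitted change was -1.01 ± 0.18 log2 units (SE). That SE leaves out the pairing of arrays by mouse, and the fitted changes of the 3 mice had an SD of 0.72. Mouse 2 declined most, with fitted changes of -0.79, -1.81 and -0.42 in mice 1, 2 and 3, and without mouse 2 the fitted change was -0.53. Without scaling, zone 8 minus zone 1 averaged -0.61, against -0.98 log2 units with it, with -0.025 in mouse 3, and the lowest zone of mouse 1 was zone 7. The signal is dim and its median error was 18.3%, so that zone 8 differed from zone 1 by over 2 combined errors in mouse 2 alone. Its zone means ran 1, 3, 4, 2, 5, 6, 7, 8 from high to low, and again the step from zone 5 to zone 6 was the 1 step of 7 over the SD within zones. Zone 6 minus zone 5 averaged -0.30 ± 0.09 log2 units, and zone 5 minus zone 4 averaged -0.35 ± 0.30 (SD, n = 3). On raw signals zone 6 minus zone 5 was -0.15, 0.17 and -0.32 in mice 1, 2 and 3.

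mmu-miR-3069-3p, the miRNA inside Scarna13, had unlike profiles in the 3 mice. In mouse 1 the scaled signal from zone 1 to zone 8 was 7.93, 8.96, 8.37, 7.84, 7.03, 6.11, 5.78 and 6.64. In mouse 2 it was 14.03, 14.5, 15.3, 14.5, 9.20, 8.37, 5.38 and 5.26. In mouse 3 it was 5.89, 5.93, 6.94, 6.75, 7.75, 5.25, 6.09 and 5.83. Mouse 2 stood far above the others in zones 1 to 4 and at their level in zones 7 and 8, whereas mouse 3 was level along the axis with its highest value in zone 5. The fitted changes were -0.54, -1.69 and -0.08 log2 units in mice 1, 2 and 3, and without mouse 2 the fitted change over both others was -0.23, against -0.77 ± 0.26 (SE) over all 3. That SE leaves out the pairing of arrays by mouse, and the fitted changes of the 3 mice had an SD of 0.83. On the raw scale mouse 3 had a fitted change of 0.15. Zone 8 averaged 5.91 ± 0.693 and zone 1 averaged 9.28 ± 4.23 (SD, n = 3). From high to low the zones ran 3, 2, 4, 1, 5, 6, 8, 7, with the step from zone 5 to zone 6 alone over the SD within zones. On raw signals zone 6 minus zone 5 was -0.10, 0.44 and -0.64 log2 units in mice 1, 2 and 3.

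mmu-miR-5112 comes from the gene Mir5112 at chr18:82720281-82720340, which no other gene of the RefSeq table overlaps. In mouse 1 its scaled signal from zone 1 to zone 8 was 25.8, 34.2, 28.4, 34.9, 33.5, 18.7, 26.8 and 19.1. In mouse 2 it was 26.4, 20.8, 22.4, 36.5, 19.7, 13.04, 11.05 and 12.7. In mouse 3 it was 40.4, 16.4, 28.8, 28.2, 24, 16.2, 19.5 and 24.8. Zone 2 of mouse 3 was as low as its zone 6, and zones 5 to 8 lay wholly below zones 1 to 4 in mouse 2 alone. The median error in the files was 8.36%. The fitted change was -0.78 ± 0.27 log2 units (SE), with a zone 8 mean of 18.9 ± 6.07 against 30.9 ± 8.26 in zone 1 (SD, n = 3). The fitted changes were -0.55, -1.27 and -0.53 in mice 1, 2 and 3 (SD 0.42), and without mouse 2 the value over both others was -0.47. Zone 8 minus zone 1 averaged -0.73 log2 units, and -0.37 without scaling. Zone 6 was below zone 5 in all 3 mice, with differences of -0.84, -0.59 and -0.57 log2 units. A fall at that step in all 3 mice was found in 22.7% of the 339 tested miRNAs on the scaled data. On raw signals the differences were -0.74, -0.02 and -0.64, so mouse 2 was nearly level there. The share falling in all 3 mice was 1.18% on raw signals. The zones ran 4, 1, 3, 5, 2, 8, 7, 6 from high to low and none of the 7 steps exceeded the SD within zones.

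mmu-miR-3620-5p had zones that overlapped in every mouse. In mouse 1 the scaled signal from zone 1 to zone 8 was 8.36, 5.73, 8.51, 7.90, 5.85, 3.13, 3.37 and 3.80. In mouse 2 it was 5.90, 7.29, 7.44, 8.96, 4.43, 3.64, 6.12 and 5.04. In mouse 3 it was 7.71, 6.96, 7.70, 7.81, 6.99, 6.95, 4.17 and 7.18. Zone 8 was clearly below zone 1 in mouse 1 only, since the difference was under 1 combined error in mice 2 and 3. The fitted change was -0.79 ± 0.24 log2 units (SE), and -0.51 without mouse 1, and the zone 8 mean was 5.34 ± 1.71 against 7.33 ± 1.28 in zone 1 (SD, n = 3). Fitted changes of the single mice had an SD of 0.52. Without scaling zone 8 was 0.466-fold, 1.30-fold and 1.27-fold of zone 1 in mice 1, 2 and 3, so the direction at the ends depended on scaling. Its zones ran 4, 3, 1, 2, 5, 8, 7, 6 from high to low, with none of the 7 steps over the SD within zones.

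mmu-miR-721 had the most negative fitted change of the 6, with an irregular order of zones. In mouse 1 the scaled signal from zone 1 to zone 8 was 6.67, 7.72, 6.83, 7.42, 1.60, 3.32, 8.04 and 2.52. In mouse 2 it was 8.91, 6.42, 7.48 and 8.37 in zones 1 to 4, undetected in zone 5, and 4.41, 3.18 and 4.87 in zones 6 to 8. In mouse 3 it was 15.7, 6.72, 8.05, 6.79, 4.45, 3.62, 1.96 and 4.84. Zone 5 was the lowest zone in mice 1 and 2, and zone 7 of mouse 1 was that animal's highest value. The fitted change was -1.56 ± 0.44 log2 units (SE), with the undetected array set to a floor of 1.12. Fitted changes of the single mice had an SD of 0.45. The 3 zone 8 arrays averaged 4.07 ± 1.35 and the 3 zone 1 arrays 10.4 ± 4.68 (SD). The value of zone 1 in mouse 3 was the highest of the 24. Ordered from high to low the zone means ran 1, 4, 3, 2, 8, 6, 7, 5, with a step over the SD within zones only between zones 2 and 8. The means of zones 1 to 4 thus stood above those of zones 5 to 8, without order inside either set. In mouse 1 this did not hold for zone 7.

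**Figure D1:**
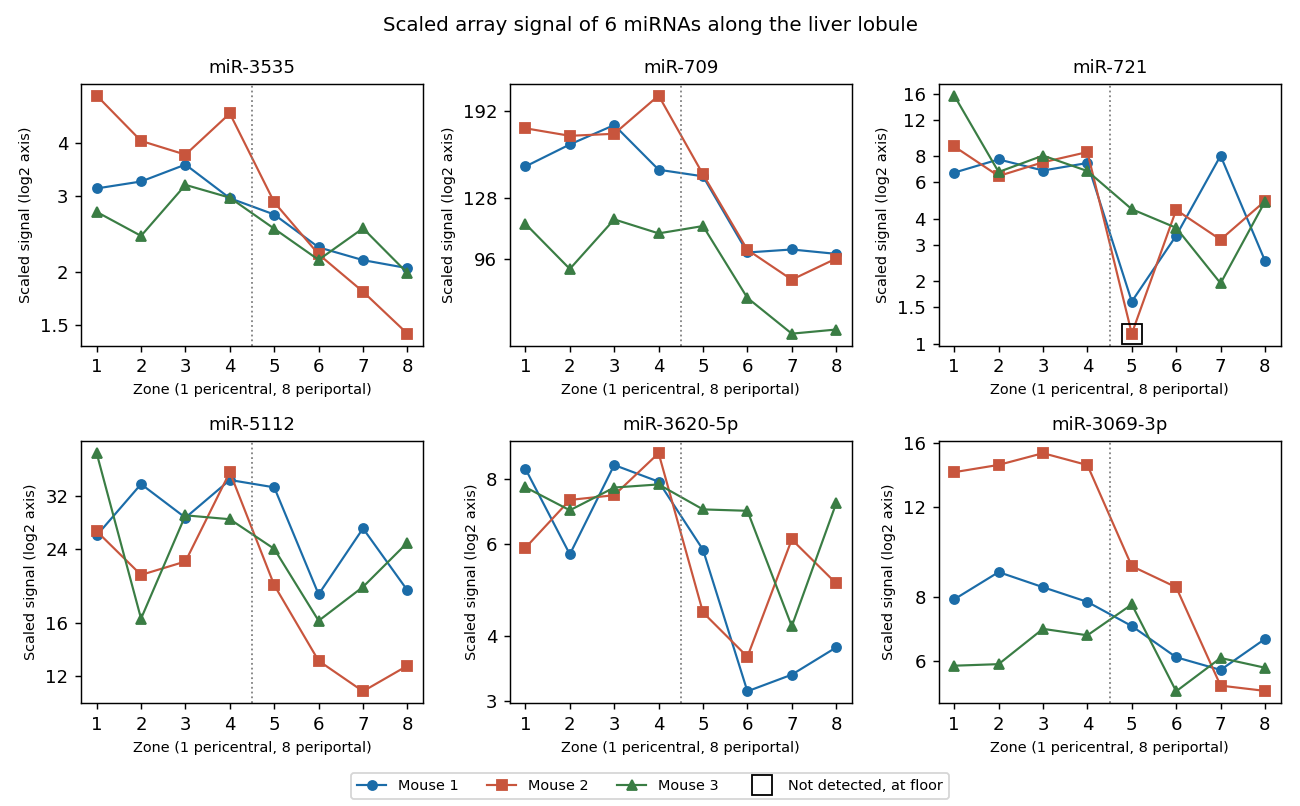
Scaled array signal (intensity units, log2 axis) against zone, 1 most pericentral to 8 most periportal, for the 6 miRNAs, with 1 line per mouse and a dotted line where the slide row changes. The miR-709 lines have no fitted decline over zones 1 to 4 and drop between zones 5 and 6, at -0.51, -0.51 and -0.48 log2 units. The boxed miR-721 point is the array where it was undetected.

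The decline of the group lay outside zones 1 to 4. Within zones 1 to 4 the fitted change averaged 0.01 ± 0.19 log2 units for miR-3535, 0.09 ± 0.10 for miR-709, 0.18 ± 0.36 for miR-5112, 0.24 ± 0.27 for miR-3620-5p and 0.09 ± 0.15 for miR-3069-3p (SD over 3 mice). miR-721 averaged -0.31 ± 0.60, and its decline there came from mouse 3 at -1.01. The median of all 339 tested miRNAs within zones 1 to 4 was 0.06. Within zones 5 to 8, which share a slide row, miR-709 averaged -0.58 ± 0.12 log2 units, with -0.46, -0.57 and -0.70 in mice 1, 2 and 3. On that measure miR-3535 averaged -0.55 ± 0.40 and miR-3069-3p -0.44 ± 0.43, each negative in 3 of 3 mice. miR-5112 averaged -0.36 ± 0.42 and miR-3620-5p -0.11 ± 0.46, so on the scaled data their decline inside zones 5 to 8 was within the spread between mice. miR-721 averaged 0.86 ± 0.97, with no decline on average. The median of all tested miRNAs there was 0.03, and 16.8% of them were negative in all 3 mice. On raw signals miR-709 had -0.13, -0.08 and -0.86 over zones 5 to 8, against a median of all tested miRNAs of 0.20 (mean over mice). Raw miR-3535 averaged -0.33 ± 0.23, negative in 3 of 3 mice, and raw miR-3069-3p averaged -0.22 ± 0.39, negative in 2 of 3 with mouse 1 at 0.23. Raw miR-5112 averaged -0.14 ± 0.10, negative in 3 of 3 mice, while raw miR-3620-5p averaged 0.11 ± 0.67 and raw miR-721 0.97 ± 1.16. Of all tested miRNAs, 9.73% were negative in all 3 mice on raw signals.

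Zones 5 to 8 were below zones 1 to 4 on average in all 3 mice for each of the 6 on the scaled data. The members were chosen for a decline along these zones, so this count is a description only. The share of the 339 tested miRNAs that were lower in all 3 mice was not computed. The mean difference was -1.28 ± 0.12 log2 units for miR-721, -0.64 ± 0.42 for miR-3535, -0.62 ± 0.33 for miR-3620-5p, -0.58 ± 0.19 for miR-709, -0.55 ± 0.31 for miR-5112 and -0.50 ± 0.54 for miR-3069-3p (SD, n = 3). The value of miR-721 rests on the floor given to its undetected array, and with a floor 4 times lower the differences were -1.15, -1.89 and -1.31 in mice 1, 2 and 3, a mean of -1.45 ± 0.39 (SD, n = 3). Raw differences ran from -1.15 ± 0.08 for miR-721 to -0.40 ± 0.52 for miR-3069-3p, whose raw difference was 0.15 in mouse 3. A row term beside the mouse block left a fitted change of -0.63 for miR-3535, -0.57 for miR-709, -0.41 for miR-3069-3p and -0.21 for miR-5112, and turned miR-3620-5p to 0.15 and miR-721 to 0.64. The median over all 339 tested miRNAs in that fit was 0.10. Zone 5 minus zone 4, where the row changes, averaged -1.91 ± 1.18 log2 units for miR-721 and -0.54 ± 0.44 for miR-3620-5p (SD, n = 3). It averaged -0.39 ± 0.44 for miR-5112, -0.35 ± 0.30 for miR-3535, -0.20 ± 0.43 for miR-3069-3p and -0.18 ± 0.31 for miR-709. The 5 control sequences detected on all arrays had median differences between the second and first row of -0.00018, -0.28 and 0.23 log2 units on the slides of mice 1, 2 and 3, with no common direction.

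**Figure D2:**
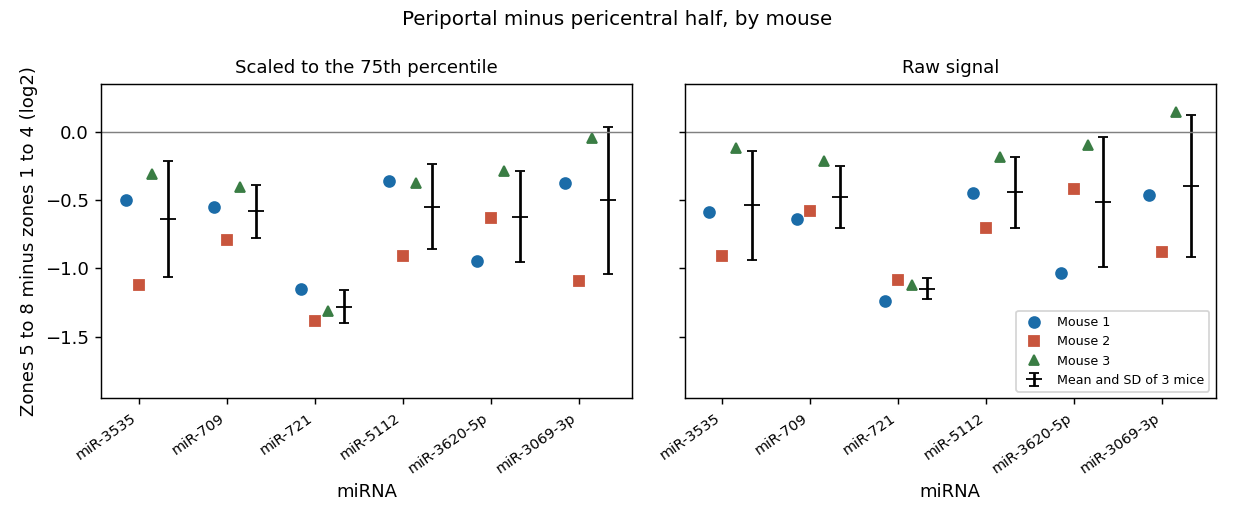
Mean log2 signal of zones 5 to 8 minus that of zones 1 to 4 for each of the 6 miRNAs, with a point per mouse and the mean and SD of 3 mice, on scaled (left) and raw (right) signals. All scaled points lie below 0, with miR-721 lowest at -1.28 ± 0.12 (its undetected array at the floor; -1.45 ± 0.39 with a floor 4 times lower), and the 1 point above 0 is raw miR-3069-3p in mouse 3 (0.15).

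**Figure D3:**
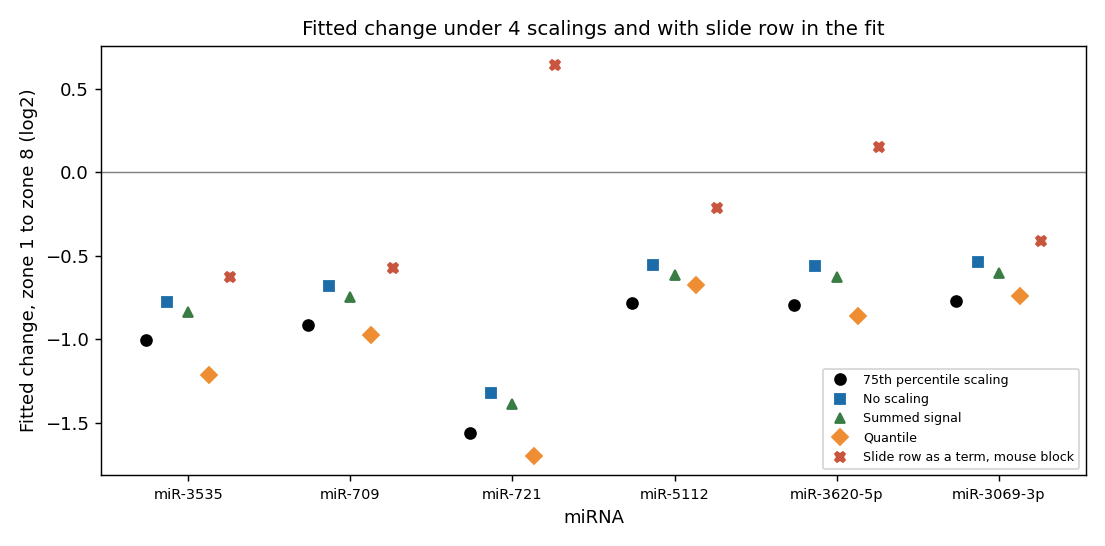
Fitted change from zone 1 to zone 8 (log2 units) of each miRNA under 4 scalings and with slide row as a term beside the mouse block. All 4 scalings give negative values, and with slide row in the fit miR-721 (0.64) and miR-3620-5p (0.15) lie above 0.

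The members are not the lowest slopes of the table in order. There were 9 other tested miRNAs that had a fitted change more negative than that of miR-3069-3p (-0.77), the least negative member. These were miR-376b-3p (-2.40 ± 1.08, SE), miR-3472 (-2.32 ± 0.62), miR-3547-5p (-1.25 ± 0.45), miR-1892 (-1.10 ± 0.46), miR-466o-3p (-0.88 ± 0.62), miR-714 (-0.88 ± 0.47), miR-7216-5p (-0.85 ± 0.50), miR-17-3p (-0.80 ± 0.24) and miR-6968-3p (-0.78 ± 0.61). Of the 9, miR-714 alone was detected on all 24 arrays. Just outside came miR-3620-3p (-0.71 ± 0.42), miR-3092-3p (-0.70 ± 0.56) and miR-7036a-5p (-0.70 ± 0.16). The median fitted change was -0.85 over the members and -0.10 over all 339.

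Whether the profiles bend in the middle of the lobule was asked with a quadratic term, which is independent of the slope used to pick the members. No member passed in limma, against 0 of 339 tested miRNAs (0%), and 0 members had an unadjusted p under 0.05, against 7 of 339. The coefficients were -0.30 ± 0.19 for miR-709, -0.27 ± 0.16 for miR-3535, -0.26 ± 0.24 for miR-3069-3p, -0.17 ± 0.25 for miR-5112 and -0.11 ± 0.22 for miR-3620-5p (SE, limma adjusted p = 0.994 for each). A negative value means middle zones above, and end zones below, the fitted straight line, and not that the highest level is in the middle. miR-721 had the opposite sign, 0.58 ± 0.40 (adjusted p = 0.994).

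Levels also differed between the animals, a comparison the choice of members did not use. Each mouse had its own slide, so animal and slide cannot be told apart, and the p-values rest on the 8 populations of single animals. miR-709 ran from 67.7 to 116 (median 99.95) in mouse 3, against 98.4 to 179.6 (median 144) in mouse 1 and 87.2 to 206 (median 157) in mouse 2. Mouse 3 minus mouse 1 gave a log2 difference of -0.50 ± 0.09 (SE, limma adjusted p = 0.000638) and mouse 3 minus mouse 2 one of -0.57 ± 0.09 (adjusted p = 6.38e-05), each lower in mouse 3 in 8 of 8 zones. miR-3069-3p ran from 5.26 to 15.3 (median 11.6) in mouse 2 and from 5.78 to 8.96 (median 7.43) in mouse 1. Its range in mouse 3 was 5.25 to 7.75 (median 6.01). It was higher in mouse 2 by 0.46 ± 0.16 (limma adjusted p = 0.0308), in 6 of 8 zones, and in mouse 3 minus mouse 2 it differed by -0.67 ± 0.16 (adjusted p = 0.00312), also in 6 of 8. miR-5112 ran from 11.05 to 36.5 (median 20.3) in mouse 2 and from 18.7 to 34.9 (median 27.6) in mouse 1. Its difference was -0.52 ± 0.17 (limma adjusted p = 0.0202), lower in mouse 2 in 6 of 8 zones.

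In all, 2 of the 6 passed between mice 2 and 1 (40.1% of the 339 tested), 1 between mice 3 and 1 (25.7%) and 2 between mice 3 and 2 (39.2%). These shares are near the background, so the group does not stand out by differing between animals. The comparisons share mice and are not independent. With this scaling miR-3535, miR-721 and miR-3620-5p passed none of the 3, with differences of -0.23 to 0.13, -0.0039 to 0.21 and 0.12 to 0.33 log2 units. The calls depended on scaling: without it miR-709 no longer passed against mouse 1 (limma adjusted p = 0.398) or mouse 2 (0.0606), nor miR-3069-3p in mouse 3 against mouse 2 (0.0676). Without scaling miR-3620-5p passed in mouse 3 against mouse 1 (0.70, limma adjusted p = 0.0196), and miR-5112 in mouse 3 against mouse 2 (0.61, adjusted p = 0.00197). miR-3535 passed in mouse 3 against mouse 1 with the summed signal (-0.53, adjusted p = 0.0168) and with quantile normalization (-0.59, adjusted p = 0.0178). With the summed signal miR-5112 (-0.62, adjusted p = 0.0124) and miR-3069-3p (-0.64, adjusted p = 0.0115) also passed in mouse 3 against mouse 1. With the summed signal and with quantile normalization miR-3069-3p in mouse 2 against mouse 1 had adjusted p = 0.463 and 0.0626.

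**Figure D4:**
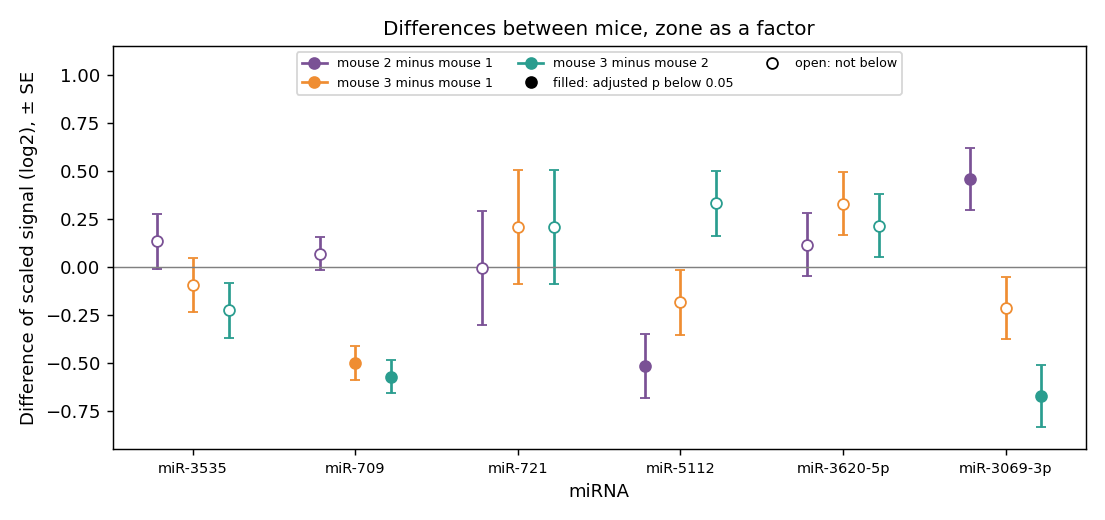
Differences in log2 scaled signal between mice for each miRNA, with SE bars from a fit with zone as a factor, filled where the limma adjusted p was below 0.05. miR-709 was lower in mouse 3 than in both other animals (-0.50 against mouse 1, -0.57 against mouse 2), and miR-3069-3p and miR-5112 have filled points of opposite sign between mice 2 and 1.

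The slope itself was compared between the mice with an interaction F test. It passed for miR-3069-3p (F = 12.7, limma adjusted p = 0.0301), and for 3 of all 339 tested miRNAs (0.885%). miR-3535, whose fitted changes spanned 1.40 log2 units over the mice, had F = 10.5 and adjusted p = 0.0620. The other 4 members had adjusted p from 0.584 to 0.965, with spans of 0.43 to 0.96 log2 units, the smallest for miR-709. The call for miR-3069-3p ended without mouse 1 (adjusted p = 0.132), mouse 2 (0.768) or mouse 3 (0.129), without scaling (0.218) and with the summed signal (0.0576). miR-3535 passed when miRNAs detected on all 24 arrays were tested (0.0206), with those detected on at least 1 (0.0351) and with slide row in the fit (0.0395).

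Co-variation was then measured after zone and mouse means were taken off, which removes the average gradient but leaves in what each mouse's slope differed by. Over the 15 member pairs the median Pearson correlation was 0.31 (range -0.21 to 0.88). The profiles of miR-3535, miR-709, miR-5112 and miR-3069-3p were positively correlated with each other. These 4 were set apart by these same correlations, so their contrast with miR-721 and miR-3620-5p is a description and no test. Pearson correlations over 24 arrays were 0.88 between miR-3535 and miR-3069-3p, 0.69 between miR-3535 and miR-709, 0.67 between miR-709 and miR-5112, 0.64 between miR-709 and miR-3069-3p, 0.55 between miR-3535 and miR-5112 and 0.50 between miR-5112 and miR-3069-3p. The 9 pairs with miR-721 or miR-3620-5p ran from -0.21 to 0.36 (median -0.02). Over all 57291 pairs of tested miRNAs the median was 0.04 (range -0.95 to 1.00). With each mouse's own slope also taken off, a step chosen after the data were seen, the pair of miR-3535 and miR-3069-3p was at 0.47. The 6 pairs among those 4 miRNAs then ran from 0.33 to 0.60 and the 9 others from -0.29 to 0.47, so the ranges overlapped. The values share arrays and the scaling factor, and the part of that factor in the result was not tested. The correlation with the log2 75th percentile was -0.66 for miR-5112, -0.48 for miR-3535, -0.36 for miR-709 and -0.21 for miR-3069-3p, against 0.53 for miR-3620-5p, 0.14 for miR-721 and a median of 0.04 over all tested. On raw signals the median over the 15 member pairs was 0.38, against 0.32 over all pairs.

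**Figure D5:**
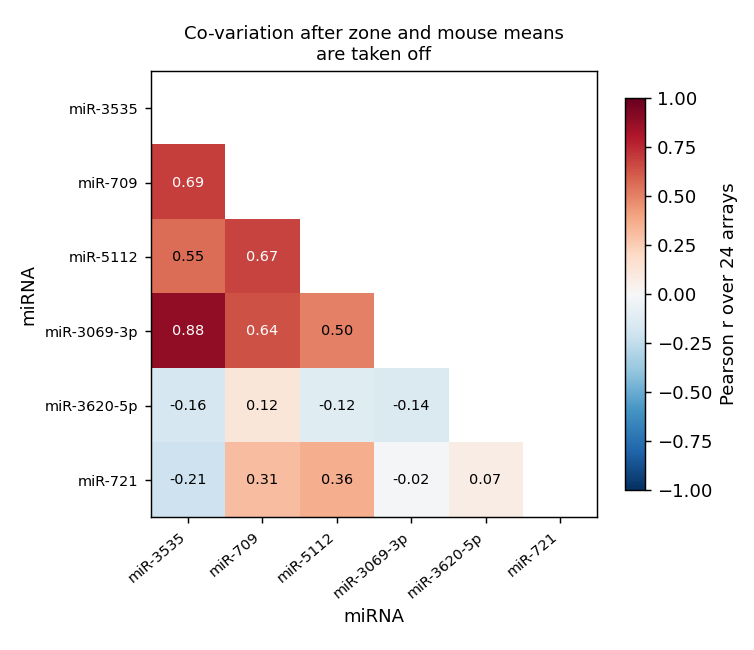
Pearson correlation over 24 arrays between each pair of the 6 miRNAs after zone and mouse means were taken off the log2 scaled signal. The pairs among miR-3535, miR-709, miR-5112 and miR-3069-3p lie between 0.50 and 0.88, and the pairs with miR-3620-5p or miR-721 between -0.21 and 0.36. This split was made from the same correlations.

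The miRNAs with the most similar profiles were found by Pearson correlation over 24 arrays after each mouse's mean was taken off, a description that holds the zone pattern. For miR-709 they were miR-7036a-5p (0.93), miR-6769b-5p (0.92) and miR-7011-5p (0.92). The nearest to miR-3535 were miR-2137 (0.92), miR-6769b-5p (0.92) and miR-7036a-5p (0.91), so miR-709 and miR-3535 shared 2 of their 3 neighbours. miR-5112 was nearest to miR-7020-5p (0.95), miR-7082-5p (0.94) and miR-3072-5p (0.92). For miR-3069-3p the nearest were miR-3472 (0.87, detected on 21 of 24 arrays), miR-677-3p (0.84) and miR-7680-3p (0.82), the last detected on 8 arrays. miR-3620-5p had miR-5107-5p (0.77), miR-5126 (0.76) and miR-3472 (0.72), and miR-721 had none above 0.63 (miR-17-3p, then miR-3102-5p.2-5p at 0.59 and miR-3547-5p at 0.58). Of these, miR-17-3p and miR-3102-5p.2-5p were detected on 23 arrays each and miR-3547-5p on 13. Values at the floor enter such correlations.

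Relatives of the members were examined next, since none of them was picked for a gradient. miR-721 shares its seed with the miR-130 family, a family conserved among vertebrates, and begins with the same 9 bases as miR-130a-3p of that family.
miR-130a-3p: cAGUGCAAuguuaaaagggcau
Of 7 other miRNAs on the array sharing a member's seed, 6 of them that of miR-721 and 1 (miR-134-3p) that of miR-3620-5p, miR-130a-3p alone was detected, on all 24 arrays. Its fitted change was -0.29 ± 0.12 log2 units (SE, limma adjusted p = 0.115), so 0 of the 1 tested passed, against 6.49% of tested miRNAs falling and 10.3% rising. With mouse as a block it did not pass either, against 16.5% falling and 14.5% rising. With quantile normalization it passed (fitted change -0.42, adjusted p = 0.00745). Its correlation with miR-721 after mouse means were taken off was 0.30 (24 arrays), and -0.17 with zone means also removed.

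The opposite arms of 2 members' precursors are on the array.
miR-3620-3p: cUGCUCAGccccgcccacccca
miR-3069-5p: uUGGCAGUcaagauauuguuuagc
miR-3069-5p was detected on 0 of 24 arrays, while miR-3069-3p was detected on 24. miR-3620-3p was detected on 23 and had a fitted change of -0.71 ± 0.42 log2 units (SE, limma adjusted p = 0.289). The fitted change of its partner arm miR-3620-5p was also negative (-0.79 ± 0.24, SE). From array to array the 2 arms did not vary together, with a correlation of -0.05 after mouse means were taken off (24 arrays). The undetected array of miR-3620-3p was at the floor in that correlation, and its weight was not tested.

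Members of the miR-15 and miR-16 family, whose miR-15a and miR-16-1 precursor miR-709 is known to act on, did not pass the slope test: 0 of 4 tested rose and 0 fell, with 5 of the 9 on the array detected at all. The fitted change was -0.22 ± 0.18 for miR-15a-5p, -0.33 ± 0.15 for miR-16-5p, -0.06 ± 0.16 for miR-15b-5p and -0.48 ± 0.50 for miR-195a-5p (SE, limma adjusted p = 0.414, 0.144, 0.851 and 0.563). The list's median was -0.28, against -0.10 for all tested miRNAs. Without mouse 2, miR-15a-5p (-0.41, adjusted p = 0.00489) and miR-16-5p (-0.35, adjusted p = 0.0272) passed downward. The passenger arm miR-16-1-3p, which comes from that precursor alone, was undetected throughout.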

How the data were processed

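Signals were those of 24 Agilent 1-colour (Cy3) mouse miRNA arrays, 1 per zone and mouse. The submitters' processing notes name Agilent Feature Extraction (its version is not given in the sources used here). From the deposited files come each miRNA's total gene signal in intensity units, its error and a detection call, and per the file headers no scaling is recorded. An undetected miRNA has a signal of 0.1 in the deposited files.

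Scaling used the 75th percentile of each array, computed from 198 miRNAs that every array detected: the 1881 miRNA signals (21 control sequences left out) were divided by it and multiplied by its mean over arrays. Values below a floor of 1.12 were set to it before log2. For testing, 339 miRNAs with detection on 6 arrays or more were fitted with limma 3.58.1 (R 4.3.3), two-sided, with Benjamini-Hochberg adjustment over all and a threshold of 0.05, and the code was tested on simulated data. Slope and quadratic fits had no block, so their SEs treat arrays of the same mouse as independent and do not measure the spread between mice. The mouse numbers pair arrays because a number is 1 animal: deviations from zone means had a median correlation of 0.610 (lowest 0.254) within a mouse, against -0.394 across mice, a value that the centring makes negative. Alternatives were 3 other scalings, 2 filters, a lower floor, eBayes with trend and robust, mouse as a block, slide row, mouse without zone and leaving out each mouse.

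Members, lists and tests were chosen with earlier results of these data known. Named miRNAs are the members, the listed relatives, 3 nearest profiles per member and those beside the members in fitted change. Sequences and positions are RefSeq's on GRCm38.p6. Figures used matplotlib 3.10.9 in Python 3.11.15.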

Additional observations from a re-analysis of the deposited data

Results flagged for a closer look

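The zone slope of miR-3069-3p differed between the 3 mice by the interaction F test (limma adjusted p = 0.0301). Its fitted change was -0.54 in mouse 1, -1.69 in mouse 2 and -0.08 in mouse 3. Animal and slide cannot be told apart here.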

How the results depend on the processing

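With mouse as a replicate block the quadratic term still called 0 members (miR-709 -0.30, limma adjusted p = 0.600; 1 member and 20 of 339 miRNAs had an unadjusted p under 0.05), and the block changed no other call of the members or their relatives. The median fitted change of the members was -0.85, from -1.06 to -0.62 without 1 mouse, and -0.31 with slide row beside the mouse block, where miR-721 was at 0.64 and miR-3620-5p at 0.15. The number of members passing between mice 2 and 1 was 2, and became 1 with the summed signal, 1 with quantile normalization and 0 with mouse without zone. Between mice 3 and 1 it was 1, and became 4, 2 and 0 under the same settings. Between mice 3 and 2 it was 2, and 1 without scaling. For the slope between mice it was 1, and became 0 without scaling, 0 with the summed signal, 0 without any 1 mouse (0 to 0), 2 with miRNAs detected on all arrays, 2 when detection on 1 array sufficed and 2 with slide row. In the miR-15 and miR-16 family 0 fell, against 1 (miR-497a-5p) when detection on 1 array sufficed and 0 to 2 without 1 mouse. Of the miRNAs sharing a seed, 1 fell with quantile normalization. Differences that changed sign were all uncalled. For mice 2 and 1 they were miR-3535 (summed signal -0.15, quantile -0.25), miR-709 (-0.22, -0.0072), miR-3620-5p (-0.17, -0.021) and miR-721 (0.13 without scaling, 0.017 without mouse 3, 0.16 without its undetected array, the last chosen after the data were seen). For mice 3 and 1 they were miR-3535 (0.28), miR-5112 (0.19) and miR-3069-3p (0.16) without scaling, miR-721 (summed signal -0.23, quantile -0.083) and miR-3620-5p (summed signal -0.10). For mice 3 and 2 it was miR-3535 without scaling (0.056). The cause was not tested. Of 616 alternative values, 548 kept their direction and, where tested, their side of the threshold, or, where untested, moved by less than the spread between mice (counts within 1.5 times). Dim signals limit miR-3535 and miR-3620-5p, whose median errors were 18.3% and 15.2%.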

Other observations

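Among 163 other tested miRNAs detected on all arrays, GC content and fitted change had a Spearman correlation of -0.41 (282 with any tested miRNA, -0.27), a description across miRNAs, which share arrays and scaling and are not independent. The 4 members with a sequence had a median GC content of 44.2%, below the 56.3% of the others, so 3 of them lie away from that trend: miR-3535 at 38.5%, miR-721 at 42.9% and miR-3069-3p at 45.5%. The other tested miRNA inside a guide RNA gene, miR-664-3p, was detected on 23 arrays with a fitted change of -0.32 ± 0.31 (SE).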
